A study of Caenorhabditis elegans with 2 samples.

Results

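The regions described here are peaks of SNPC-4 at genes that the annotation calls ncRNA, lincRNA or antisense RNA, biotypes that name no classical family. A peak belonged to the set when such a gene had its 5′ end at most 300 bp from the peak summit and the summit was not within 200 bp of the 5′ end of any snRNA, tRNA, snoRNA, spliced leader (*sls-1* or *sls-2*) or protein-coding gene. The genes *rpr-1*, *mrpr-1*, *yrn-1* and *rncs-1* were left out. The rule gave 159 peaks at 154 genes, out of 2318 nuclear peaks among the 2345 of the thresholded list on ce11, the build also known as WBcel235. Without the second condition, 425 nuclear peaks lay within 300 bp of a 5′ end of these biotypes. The rule used positions only and no measured signal beyond the authors' threshold.

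The peaks came from chromatin immunoprecipitation with sequencing (ChIP-seq) of SNPC-4 in young adult worms of *Caenorhabditis elegans*, used whole and as a mix of sexes. There was 1 group with 2 biological replicates, so values are described and no test between groups was possible. All worms were of strain OP179, which carries the *unc-119*(*ed3*) allele and the integrated transgene *wgIs179*, from which SNPC-4 is made with GFP and FLAG tags at its C-terminus. The promoter of the transgene is not given in the sources used here, and whole animals mix all tissues, so that the cells behind a peak cannot be told apart.

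SNPC-4 belongs to SNAPc, which binds the proximal sequence element upstream of small nuclear RNA (snRNA) genes and starts their transcription. In animals SNAPc serves both RNA polymerase II, at most snRNA genes, and RNA polymerase III, at U6 and related genes. In U6 promoters the proximal sequence element is followed by a TATA box, and RNA polymerase III stops at a run of T at the end of the gene. In *C. elegans* SNPC-4 is also known at spliced leader and piRNA genes.

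Among the strongest peaks of the set were short genes with a U6-like order of 3 features, and their promoters are shown because several results turn on them. The features were the word GTCNG at 75 to 35 bases before the 5′ end, TATA at 40 to 20 bases before it, and a run of 4 T within 10 bp of the 3′ end. GTCNG was chosen after the data were seen, from the snRNA and spliced leader genes with a peak, and all words were read on the gene's strand. Each line gives the 80 bases that end at the last base before the gene, 5′ to 3′, from the RefSeq WBcel235 genome, with GTCNG and the first TATA in capitals. *W05B2.8*, an snRNA gene with a peak, is given first for comparison. *F08G2.13* and *F08G2.12* hold TATA but no GTCNG in the window.
W05B2.8 (chrIII:10989599-10989678, plus strand): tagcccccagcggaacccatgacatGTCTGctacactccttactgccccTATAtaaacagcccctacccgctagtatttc
F08G2.13 (chrII:13834524-13834603, minus strand): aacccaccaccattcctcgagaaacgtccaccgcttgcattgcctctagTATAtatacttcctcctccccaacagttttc
W01D2.8 (chrII:14801428-14801507, minus strand): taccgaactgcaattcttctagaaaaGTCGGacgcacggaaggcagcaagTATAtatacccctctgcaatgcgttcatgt
W01D2.9 (chrII:14804715-14804794, plus strand): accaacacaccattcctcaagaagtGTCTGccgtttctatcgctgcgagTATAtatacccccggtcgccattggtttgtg
C18C4.17 (chrV:5576142-5576221, plus strand): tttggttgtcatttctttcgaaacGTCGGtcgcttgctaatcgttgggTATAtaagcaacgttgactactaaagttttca
M163.12 (chrX:14477465-14477544, plus strand): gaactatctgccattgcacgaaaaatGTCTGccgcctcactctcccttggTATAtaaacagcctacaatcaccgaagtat
CD4.18 (chrV:5587205-5587284, plus strand): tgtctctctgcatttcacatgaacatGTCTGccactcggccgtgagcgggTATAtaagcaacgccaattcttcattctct
CD4.17 (chrV:5587999-5588078, plus strand): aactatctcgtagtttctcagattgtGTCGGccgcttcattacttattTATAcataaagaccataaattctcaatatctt
F08G2.12 (chrII:13834955-13835034, minus strand): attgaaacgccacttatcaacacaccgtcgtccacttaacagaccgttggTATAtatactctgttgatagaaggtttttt
In *W01D2.8*, *W01D2.9*, *C18C4.17*, *M163.12* and *CD4.18* the first base of GTCNG preceded the first base of TATA by 24 bases, as in *W05B2.8*, and in *CD4.17* by 22 bases.

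The peak at *B0361.13* lay between 2 genes that point away from each other, *B0361.13* on the minus strand and the miRNA gene *mir-2214* on the plus strand. The whole stretch between the 5′ ends is shown on the plus strand because each end carries its own element and TATA. Capitals mark TATA and the reverse complement of GTCNG for *B0361.13* on the left, and GTCNG and TATA for *mir-2214* on the right.
B0361.13 to mir-2214 (chrIII:7278532-7278714, plus strand): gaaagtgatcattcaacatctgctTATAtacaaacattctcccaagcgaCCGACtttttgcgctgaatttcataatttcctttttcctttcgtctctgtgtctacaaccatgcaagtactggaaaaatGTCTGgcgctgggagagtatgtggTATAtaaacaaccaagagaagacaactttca
On either side the first base of the element and that of the first TATA on the gene's strand were 24 bases apart. For *B0361.13* this TATA overlaps the one in capitals and starts nearer to the element. The summit lay 140 bp before *B0361.13* and 44 bp from the 5′ end of *mir-2214*, which is no member of the set. Which of them the peak belongs to was not tested.

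A second group carried AACCCG followed 5 bases later by TGTCNG, a pair of words that was also read from snRNA and spliced leader genes after the data were seen. Its promoters, again the 80 bases before the 5′ end, are shown with the pair in capitals beside the spliced leader gene *sls-2.16*. *F52D4.1* is added because it holds GTCNG, in capitals, without AACCCG and without TATA.
sls-2.16 (chrIII:7141311-7141390, plus strand): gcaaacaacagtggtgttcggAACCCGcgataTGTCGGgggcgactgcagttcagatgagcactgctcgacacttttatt
T19C4.16 (chrV:11176846-11176925, plus strand): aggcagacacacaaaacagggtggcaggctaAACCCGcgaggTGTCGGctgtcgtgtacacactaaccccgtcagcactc
K08B5.8 (chrX:16564650-16564729, plus strand): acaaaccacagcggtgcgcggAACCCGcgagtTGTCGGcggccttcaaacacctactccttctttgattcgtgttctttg
F44E5.16 (chrII:11756705-11756784, plus strand): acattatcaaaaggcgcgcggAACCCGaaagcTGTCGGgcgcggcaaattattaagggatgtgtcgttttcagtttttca
F52D4.1 (chrIV:13709190-13709269, plus strand): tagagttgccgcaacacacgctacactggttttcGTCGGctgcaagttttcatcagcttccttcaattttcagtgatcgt
In *T19C4.16* the pair ends nearer to the gene than the window used for GTCNG, so it was counted as without that element. *T19C4.16* is also an uncertain case, because only 54.3% of the 32-base words within 200 bp of its 5′ end occur once in the genome.

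In 3 further strong peaks with a summit more than 100 bp from the annotated 5′ end, the sequence at the summit is shown. The 101 bases around these summits are shown on the plus strand. Capitals mark the pair of words at *F45H7.11*, the word TACCGACA at *C17G10.14*, and a match to the B box, the internal promoter element of tRNA genes, written GTTCGANNC, at *Y57G11C.1146*.
F45H7.11 (chrIII:3377947-3378047, plus strand): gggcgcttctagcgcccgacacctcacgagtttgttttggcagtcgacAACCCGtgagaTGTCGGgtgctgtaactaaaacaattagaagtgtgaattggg
C17G10.14 (chrII:5599654-5599754, plus strand): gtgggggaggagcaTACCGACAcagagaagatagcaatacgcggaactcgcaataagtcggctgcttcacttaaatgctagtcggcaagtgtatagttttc
Y57G11C.1146 (chrIV:14875352-14875452, plus strand): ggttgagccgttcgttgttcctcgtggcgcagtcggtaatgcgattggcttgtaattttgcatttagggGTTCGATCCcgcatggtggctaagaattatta
TACCGACA was 1 of 10 words of 8 bases chosen at snRNA and spliced leader peaks, where 11 of 86 held it, against 1 of 2073 other nuclear peaks outside the set. The summits lay 122 bp downstream of the 5′ end of *F45H7.11*, 225 bp upstream of that of *C17G10.14* and 232 bp downstream of that of *Y57G11C.1146*, which is past the end of this gene of 93 bases. Not all strong peaks with such distant summits held these words. At *T19C4.11* and the downstream summit of *F08G2.12*, the pair, the 10 words and the B box were absent within 50 bp of the summit. The promoter window of *T19C4.11* nonetheless holds GTCNG, without TATA. A match of these words is a description of the sequence and does not make it a binding site.

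Signal is the authors' value for a peak, from their peak caller. Values of the thresholded list run higher than those of either replicate list, so a level is compared only within a list. The 159 peaks had a median signal of 66.8, with a range from 41.9 to 1387. In replicate 1 the median was 36.4 over the 149 peaks with an entry, and in replicate 2 it was 34.5 over 142. All nuclear peaks had a median of 60.4. A peak was placed in a comparison class when its summit lay within 200 bp of a 5′ end of that class, and was counted once. The median was 242 for peaks at snRNA or spliced leader genes (n = 86), with 138 at snoRNA genes (n = 96), 71.4 at tRNA genes (n = 262) and 59.8 at protein-coding genes (n = 439). The middle of the set was thus near that of tRNA and protein-coding genes. A signal above 100 was found at 40 of the 159 peaks (25.2%), against 19.6% of all nuclear peaks and 29.0% of tRNA peaks. Among the 100 strongest nuclear peaks were 7 of the set, which is 4.40% of it and close to the 4.31% of all nuclear peaks. In the set 13 peaks exceeded 200. No test of these differences was made.

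**Figure D1:**
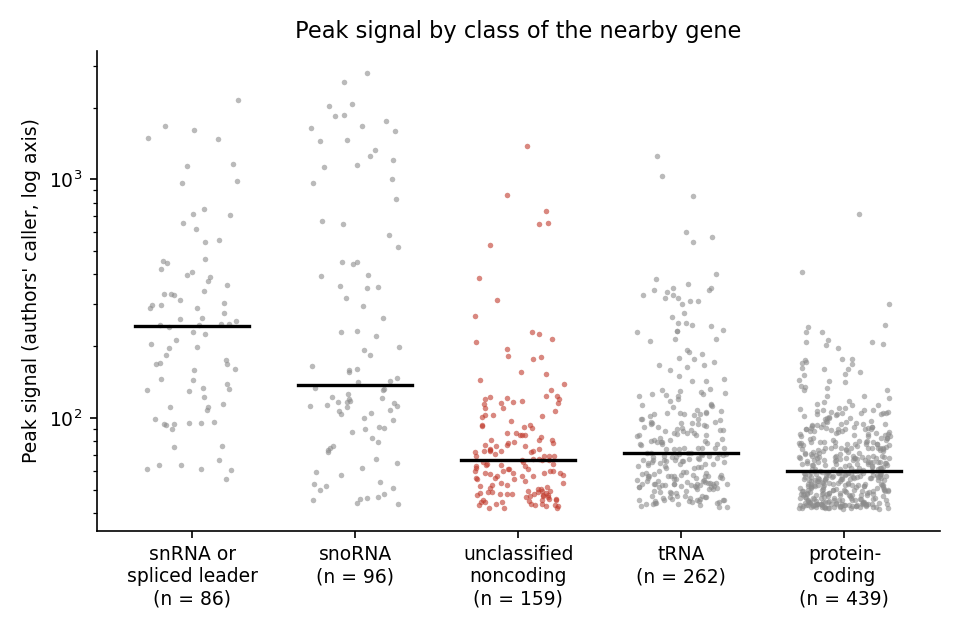
Signal of each nuclear peak on a log axis, by the class of the gene at its summit, with black lines at the medians. The 159 peaks at unclassified noncoding RNA genes (red) had a median of 66.8, against 242 at snRNA or spliced leader genes, and reached 1387.

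The strongest peak of the set, at *ZK265.11*, had a signal of 789 in replicate 1 and 621 in replicate 2, and 1387 in the thresholded list, where it ranked 18 among nuclear peaks. *ZK265.11* is a gene of 76 bases whose sequence has a C box and a D box, the words TGATGA near its start and CTGA near its end that mark one family of snoRNAs. It was the only gene of the 154 with both boxes in place, against 6 of all 8054 unclassified genes (0.0745%). The peak centred 36 bp before the gene, in an untranslated exon of the homeobox gene *ceh-8*, and held the AACCCG and TGTCNG pair.

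Genes with TATA and a run of T were also among the strongest, *B0361.13* with GTCNG and *F08G2.13* without it. At *B0361.13* the signal was 486 in replicate 1 and 374 in replicate 2, and 862 in the thresholded list. At *F08G2.13* it was 374 and 301.4, and 655 in the thresholded list. Both peaks were high in both replicates, and replicate 1 gave the larger value.

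*W01D2.8* had 156 in replicate 1 and 127 in replicate 2, with 267 in the thresholded list. *W01D2.9*, on the same chromosome, had 114.7 and 81.2, with 228. *C18C4.17* had 96.1 and 117, with 226. The order of the replicates differed among these 3 genes, and each exceeded the set's median in both replicates. *M163.12* had 98.1 and 88.3, *CD4.18* had 66.9 and 69.2, and *CD4.17* had 60.8 and 51.9. All 3 were lower than *W01D2.8* in both replicates. *CD4.17* and *CD4.18* are both on the strand of *CD4.11*, with their summits in its introns. The genes *lfor-1* and *lfor-2*, which resemble each other, were lower, with 46.3 and 31.9 at *lfor-1* and 25.2 and 34.6 at *lfor-2*, and only 41.9% and 34.6% of the sequence words around their 5′ ends are unique.

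*F08G2.12* had a pair of summits. The one 107 bp upstream of its 5′ end had 77.3 in replicate 1 and 95.1 in replicate 2, and the one 204 bp downstream had 83.9 and 16.4. The downstream summit was past the end of this gene of 68 bases, with 2 unclassified genes within 300 bp. The upstream summit was present in both replicates at like values, while the downstream one was high in replicate 1 and low in replicate 2. The summits of *F08G2.12* lie in the interval that also holds the summit of *F08G2.13*, so they are not separate intervals of the list.

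Across the set, 15 peaks at 14 genes, both summits of *F08G2.12* included, had TATA with a run of T. The median signal of these peaks was 139 (57.04 to 862). Their medians were 77.3 in replicate 1 and 69.2 in replicate 2. The 144 other peaks had a median of 63.5 in the thresholded list, 35.3 in replicate 1 (n = 134) and 33.3 in replicate 2 (n = 127). The ranges overlapped, since *ZK265.11* is among the others and *srpr-1.2*, with 57.04, is among the 15.

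Genes with the pair of words or with GTCNG alone included further strong members. *T19C4.16* had 281 in replicate 1 and 372 in replicate 2, *K08B5.8* had 113 and 91.5, and *F44E5.16* had 109 and 66.0. *F52D4.1* had 224 and 149 at a summit 29 bp upstream of its 5′ end, and a second summit 174 bp downstream had 66.3 and 19.6. Both summits of *F52D4.1* lay in a piRNA cluster of chromosome IV. The second was past the end of the gene and 78 bp from a piRNA 5′ end. At *Y65B4BR.10* the values were 64.2 and 81.4. These peaks were present in both replicates, and the larger value fell in replicate 2 at *T19C4.16* and *Y65B4BR.10* and in replicate 1 at the others.

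Strong peaks were also seen at genes without either layout. *C17G10.14*, a gene of 577 bases, had 406 in replicate 1 and 348 in replicate 2, with a protein-coding 5′ end 328 bp from the summit. *LLC1.120*, of 83 bases in a piRNA cluster of chromosome IV, had 292 and 239 in its peak at chrIV:14464053-14464532, with a protein-coding 5′ end 227 bp from the summit. *Y57G11C.1146* had 215 and 107. Its summit, also in a piRNA cluster of chromosome IV, lay 133 bp from a piRNA 5′ end. The peaks of all 3 genes were among the 2345 strongest entries of both replicates.

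*K10H10.11*, a gene of 80 bases with a run of T, had 122 and 97.7, with a B box match within 50 bp of a summit that lay 31 bp before the gene. *F45H7.11* had 122 and 77.8, *T19C4.11* had 51.2 and 74.9, and *Y38F2AR.16* had 79.7 and 61.1. Replicate 1 was the higher one at each of these apart from *T19C4.11*, whose sequence is as ambiguous as that of *T19C4.16* (54.3% unique words). *T19C4.11* lies inside *T19C4.16* on the same strand, so their peaks are not at separate loci. Unlike the genes without either layout, *T19C4.11* has GTCNG in its window.

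The values of both replicates were compared at the 133 peaks with an entry in both lists, taking the strongest entry with a summit within 100 bp. The ratio of replicate 1 to replicate 2 had a median of 1.10 and ranged from 0.138, at *srpr-2.1*, to 7.62, at a peak of low signal. Replicate 1 was higher at 75 of the 133, and 31 differed by more than 2-fold. Spearman's rho across these peaks was 0.57, as a description of the peaks, which are no replicates of each other. No entry was found in replicate 1 for 10 members and in replicate 2 for 17. Among the 2345 strongest entries of both replicates were 82 members, or 51.6%, against 44.2% of all nuclear peaks, 87.2% of snRNA or spliced leader peaks and 42.6% of protein-coding peaks. Of the 20 strongest members, 19 were among them, the exception being the downstream summit of *F08G2.12*.

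**Figure D2:**
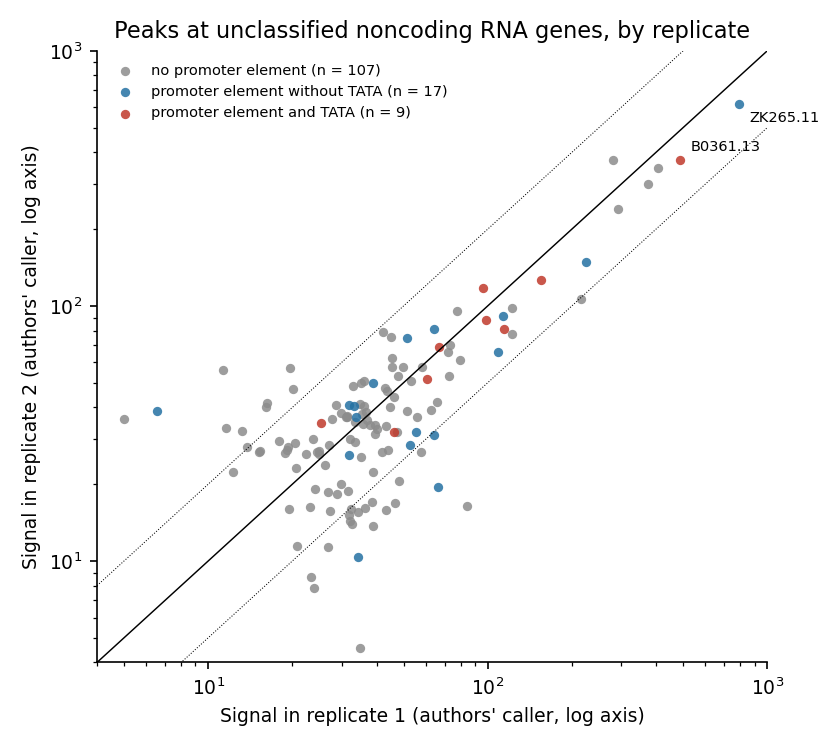
Signal of the 133 peaks with an entry in both replicate lists, replicate 2 against replicate 1 on log axes, coloured by the promoter layout of the gene. The solid line marks equal values and the dotted lines a 2-fold difference, beyond which lay 31 peaks, while *ZK265.11* and *B0361.13* lie within them.

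Summits of the set lay on both sides of the 5′ end. Of the 159, 65 (40.9%) were upstream, and the median position was 17 bp downstream. The 20 strongest differed from this, with 13 upstream, a median of 33 bp upstream, and 10 between 80 and 20 bp upstream. Of the other 139 peaks, 18 (12.9%) were in that stretch, which was chosen after the data were seen. At snRNA or spliced leader genes 58.1% of summits fell in it, at snoRNA genes 57.3%, at tRNA genes 17.2% and at protein-coding genes 21.2%. Summits of those classes lay within 200 bp of the 5′ end and those of the set within 300 bp, so these shares are not on the same footing. With the summits of the replicate lists, the count among the 20 strongest was 7 in replicate 1 and 9 in replicate 2. The summits of both replicates were a median of 16 bp apart at these peaks and 40 bp apart at the other 113 with an entry in both, so the position of a weak peak is known less closely.

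**Figure D3:**
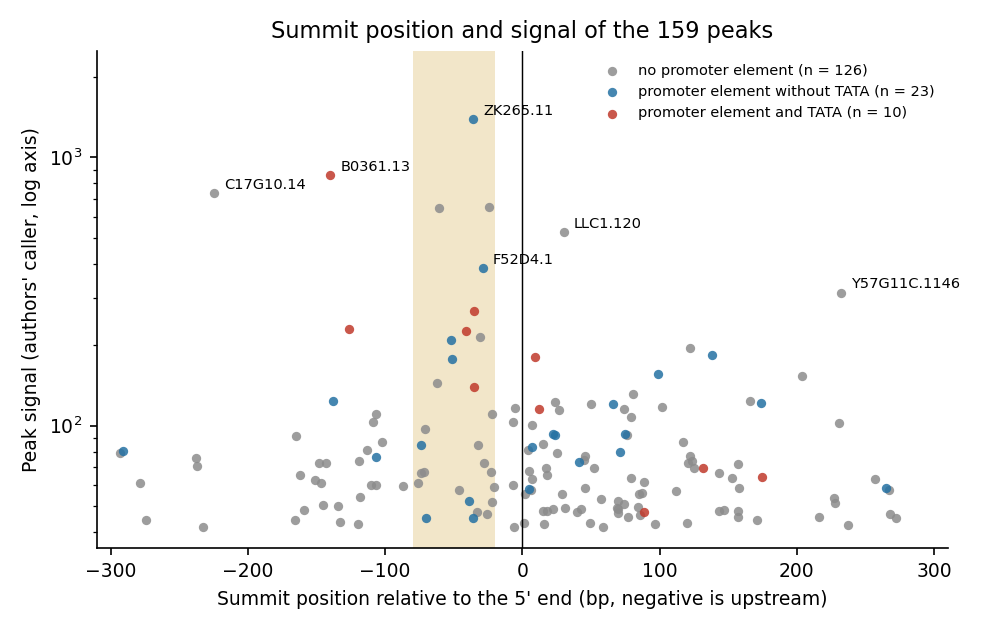
Signal on a log axis against the position of the summit relative to the 5′ end of the nearest unclassified noncoding RNA gene, for all 159 peaks. The shaded stretch from 80 to 20 bp upstream holds 28 peaks, among them 10 of the 20 strongest.

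The share of genes with a peak was counted over loci, where genes with the same 5′ end count once. Of 6962 unclassified loci clear of the other classes, 193 had a summit of the set within 300 bp, or 2.77% (Wilson 95% interval 2.41 to 3.18). Over all gene classes, 3010 of 46873 loci (6.42%) had a nuclear summit within 300 bp, and over protein-coding loci 779 of 19966 (3.90%). These shares place no condition on neighbouring genes, so that they are not on the same footing as the 2.77%. By biotype, 192 of 6696 ncRNA loci (2.87%) and 1 of 177 lincRNA loci (0.565%) had a peak. None of the 89 antisense RNA loci did, which allows a share of up to 3.37%. The lincRNA was *linc-91*, with 31.0 in replicate 1 and 36.7 in replicate 2.

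Loci with the U6-like features had a peak more often in these counts. Of 42 loci with GTCNG and TATA, 10 had one (23.8%, Wilson 95% interval 13.5 to 38.5), against 22 of 489 with GTCNG alone (4.50%, 2.99 to 6.72) and 161 of 6431 without it (2.504%, 2.15 to 2.91). Within the 42, a peak was found at 9 of the 18 with a run of T (50%, 29.0 to 71.0) and at 1 of the 24 without one (4.167%, 0.739 to 20.2). TATA with a run of T, whatever the element, gave 17 of 102 loci (16.7%, 10.7 to 25.1), while TATA without a run of T gave 10 of 350 (2.86%) and a run of T without TATA gave 48 of 1492 (3.22%). Those intervals cover counting error only, and GTCNG was chosen with the peaks known, though at other genes. These other genes include the snRNA gene *M163.13*, which *M163.12*, *W01D2.8* and *CD4.18* match in sequence. The choice of GTCNG and the counts are thus not fully separate. The 9 loci with all 3 features and a peak were those of *B0361.13*, *W01D2.8*, *W01D2.9*, *C18C4.17*, *M163.12*, *CD4.18*, *CD4.17*, *lfor-1* and *lfor-2*, and the tenth locus with GTCNG and TATA was that of *F40F11.6*. Several of these genes resemble each other in sequence, so that they are not independent. Of the 10 peaks with GTCNG and TATA, 5 had their summit upstream of the 5′ end. Only 3 of the 10 summits (30%) were between 80 and 20 bp upstream, against 58.1% at snRNA or spliced leader genes. With the replicate lists in place of the thresholded one, the share at the 18 loci was 50% in replicate 1 and 55.6% in replicate 2.

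**Figure D4:**
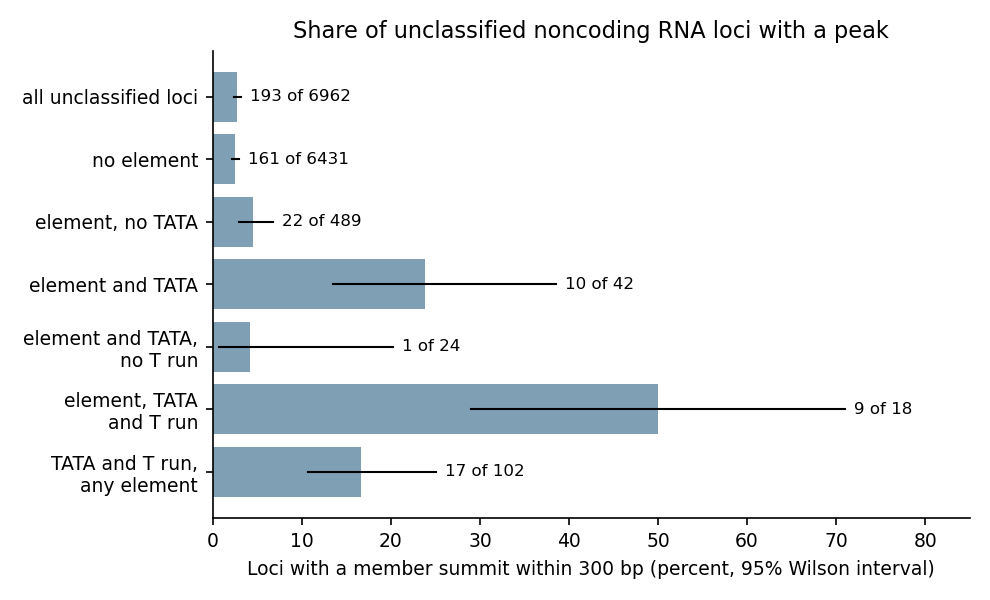
Percent of unclassified noncoding RNA loci with a summit of the set within 300 bp, by promoter and 3′ end features, with Wilson 95% intervals as lines and counts beside the bars. Bars run from 2.504% without the element to 50% at the 18 loci with the element, TATA and a run of T.

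The distance between the elements was measured from the first base of GTCNG to the first base of TATA. It was 24 bases at 6 of the 9 loci with all 3 features and a peak, 22 at *CD4.17* and 26 at *lfor-1* and *lfor-2*. Among the 10 snRNA or spliced leader genes with a peak and both words, it was 24 bases at 7. Of the 11 unclassified loci with a distance of 24 bases, 6 had a peak, against 4 of the 31 with another distance. With a run of T as well, 6 of 8 loci had one, and the exceptions were *C15H11.12* and *F35E12.13*. This distance was chosen after the data were seen, and the similar genes named above, *M163.13* included, are among those counted.

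GTCNG within the window was found at 31 of the 154 genes of the set (20.1%), at 7.45% of all 8054 unclassified genes and at 5.40% of all genes. It was found at 59 of the 72 snRNA and spliced leader genes with a peak (81.9%), from which it was chosen, at 46.8% of snoRNA genes with a peak, at 11.6% of tRNA genes with a peak and at 6.14% of protein-coding genes with a peak. TATA was found at 14.9% of the genes of the set and at 6.56% of all unclassified genes, and a run of T at 31.8% and 22.2%. Over all genes of all classes the shares were 13.4% for TATA and 34.2% for a run of T, so those of the set were near them. By layout, the 10 peaks with GTCNG and TATA had a median signal of 160, the 23 with GTCNG alone 91.9, and the 126 without it 61.5. The AACCCG and TGTCNG pair lay within 50 bp of 7 of the 159 summits (4.40%), against 5.52% of all nuclear summits, and 5 of the 7 were among the 20 strongest. The same pair lay at 19.8% of snRNA or spliced leader summits, 21.9% of snoRNA summits, 0.683% of protein-coding summits and 0 of 262 tRNA summits, which allows a share of up to 1.15%. Any of the 10 words of 8 bases was found at 7 summits of the set (4.40%), at 4.53% of all nuclear summits and at 41.9% of snRNA or spliced leader summits. Over the whole set, neither the pair nor the words were thus more frequent than among all nuclear peaks. The B box lay at 4 summits (2.52%), against 6.30% of all nuclear summits and 42.0% at tRNA genes.

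**Figure D5:**
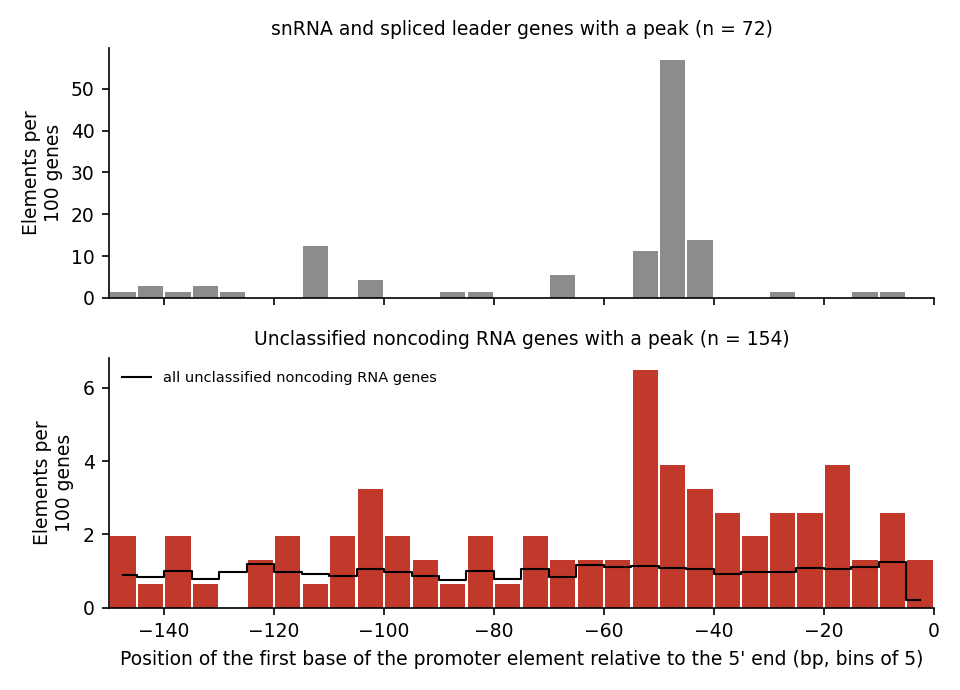
Number of GTCNG words starting in each stretch of 5 bases upstream of the 5′ end, per 100 genes, at the 72 snRNA and spliced leader genes with a peak (upper) and the 154 genes of the set (lower), with all 8054 unclassified genes as a line. The highest bar lies at 50 to 46 bases upstream in the upper panel, with 56.9 per 100 genes, and at 55 to 51 bases upstream in the lower, with 6.49.

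Several genes of the set resembled genes of known RNA families in sequence (blastn). Of the 154 genes, 4 matched an snRNA gene, 5 a snoRNA gene and 1 a tRNA gene. *T19C4.16* and *T19C4.11* matched the snoRNA gene *T19C4.12* at 100% over 178 bases. They overlap on the same strand, so both matches come from the same stretch of sequence. *F52D4.1* matched the snRNA gene *F56A12.5* at 69.5% over 141 bases, *M163.12* matched the snRNA gene *M163.13* at 88.5% over 78 bases, and *K08B5.8* matched the snoRNA gene *T21F2.3* at 84.3% over 83 bases. *C10G8.9* matched the tRNA gene *C05E7.t1* at 100% over 72 bases, and had 51.3 in replicate 1 and 38.6 in replicate 2. The summit at *C10G8.9* lay 165 bp from its 5′ end and 251 bp from that of a tRNA gene. Shorter matches of *W01D2.8* and *CD4.18* to *M163.13* spanned 25 and 27 bases. A match to another unclassified gene was found for 26 genes, among them *B0361.13*, *F08G2.12*, *C18C4.17* and *F44E5.16*. The search was run for genes of the set only, so none of these counts can be set against all unclassified genes.

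Reads of such copies may be placed at more than one locus. In 12 of the 159 peaks, at 11 genes, under 80% of the 32-base words around the 5′ end were unique. Without these 12 peaks the median signal was 66.8 and the share of summits upstream 42.9%.

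Of the 159 summits, 108 lay outside protein-coding genes. In introns were 30 summits whose noncoding gene is on the other strand of the host and 15 whose gene is on the host's strand. Untranslated exons held 4 summits and coding exons 2. The locations of other nuclear summits were not counted, so these numbers describe the set alone. The median signal was 66.9 outside protein-coding genes, 64.9 in introns on the other strand and 69.4 in introns on the host's strand. After *W01D2.8*, *CD4.18* and *CD4.17*, the next intron peak on the host's strand, at *W06H8.16*, had a signal of 102 and no entry in replicate 2. In exons *ZK265.11* was followed by *F40F9.15* in *drap-1*, with 47.7 in replicate 1 and 53.3 in replicate 2, and by *C15F1.12* in *C15F1.1*, with 46.7 and 16.9.

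By chromosome the set had 20 peaks on I, 36 on II, 21 on III, 34 on IV, 24 on V and 24 on X, with no count of other peaks beside them. Of those on chromosome IV, 21 lay in the piRNA gene clusters, with a median signal of 73.0 and medians of 37.0 in replicate 1 and 39.4 in replicate 2, against 65.2 for the 138 elsewhere. The share of all nuclear peaks in these clusters was 27.0%, and that of the set 13.2%. A piRNA 5′ end lay within 200 bp of 4 summits, and a miRNA 5′ end within 200 bp of 3.

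Neighbouring genes limit how surely a peak belongs to its gene. A protein-coding 5′ end lay 201 to 500 bp from 54 summits, several unclassified genes lay within 300 bp of 55, and 79 summits were inside the gene itself. An snRNA, spliced leader, snoRNA or tRNA 5′ end lay 201 to 500 bp from 4 summits. Of the peaks 92 were within 100 bp of the 5′ end, 47 at 101 to 200 bp and 20 at 201 to 300 bp. The members nearest the limit of 300 bp were *C09B7.8* at 293 bp (35.1 and 25.5 in the replicates), *T24B8.22* at 291 bp (55.1, with no entry in replicate 2) and *F44E5.14* at 279 bp (39.0 and 22.4). Just outside were *C06E1.15* at 302 bp (34.4, with no entry in replicate 2), *Y70C5A.5* at 307 bp (22.7 and 17.7) and *K01F9.6* at 318 bp (33.4 in replicate 2 alone). The 20 peaks at 201 to 300 bp had a median signal of 60.0 and the 20 at 301 to 400 bp one of 54.8.

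The genes of the set had a median length of 146 bases, against 141 for all unclassified genes, and the 10 with GTCNG and TATA had a median of 93.5 bases (63 to 302).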

How the data were processed

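SNPC-4 was measured by ChIP-seq in 2 biological replicates of whole worms. The deposited files were peak lists. The signal of each peak is the authors' value, whose scale is not stated, and it was used only to describe and rank peaks within a list. In the thresholded list each deposited −log10 q value was 3.59, so they gave no ranking. Summits were the deposited offset from the peak start. Replicate values came from the lists given to the irreproducible discovery rate step, which per the labels hold peaks and background (27573 entries in replicate 1, 30000 in replicate 2), by the strongest entry with a summit within 100 bp. Replicate medians given for peaks of the thresholded list used these entries, whatever their rank. Where a replicate list took the place of the thresholded list, the rule was applied anew to its 2345 strongest entries. The counts and medians from that step therefore belong to other sets of peaks. Peak caller, aligner and threshold: not given in the sources used here. Read counts were not used here, so the depth is unknown, and a control is not analysed here.

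Gene positions were from Ensembl release 115 and sequences from the RefSeq WBcel235 genome, read with Python 3.11.15. Matches used blastn 2.17.0 at an E-value of 1e-05. The rule for members was checked on simulated peaks against a direct computation of the same rule, which does not test summit positions. Intervals are Wilson 95% and cover counting error of genes or peaks only. The limit given for a count of 0 uses 3 counts. The members, the lists and the words were chosen with earlier results of these data known, and no p-value was computed. Genes were named by rule: the 20 strongest members, up to 3 strongest per biotype, per location and with a match to an snRNA, snoRNA or tRNA gene, and the 3 members or peaks closest to 300 bp on either side. Others named were chosen after their values were seen, such as the genes with GTCNG and TATA. The alternatives were other windows, the stronger part of the list by signal, each replicate alone and other rules for a shared entry.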

Additional observations from a re-analysis of the deposited data

How the results depend on the processing

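Of the 49 alternatives, 31 moved a result by less than the spread between the replicates (or the counting interval) and 18 by more. The results are counts, medians and shares of the set, so they have no direction that could change. The share of loci with a peak, 2.77%, was 2.33% with a window of 200 bp, 3.35% with 500 bp, 1.98% with the other classes kept 500 bp away, and 1.64% among the peaks above the list's median signal. The 159 peaks became 102 with the classes kept 500 bp away, where 49.0% of summits were upstream, and 93 above the list's median, where the median signal was 86.9, 7.53% held a shared word and 78.5% were among the strongest entries of both replicates. The shared words were at 6.29% within 100 bp. The share among the strongest entries of both replicates was 65.4% by overlap of intervals and 37.1% with summits within 50 bp.

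With either replicate left out, the count ran from 160 to 181, the median signal from 31.95 to 37.4, the share upstream from 42.0 to 50%, the shared words from 3.87 to 5.0%, the share of loci from 2.69 to 3.23%, and the share of the 18 loci with GTCNG, TATA and a run of T from 50 to 55.6%. The signal of each replicate is on its own scale, and the cause of the shifts was not tested. The piRNA cluster and uniqueness alternatives, the word pair and those for the 18 loci were added after the data were seen. With depth unknown and 2 replicates, weak peaks are the least certain. No paired analysis was possible because there was 1 group.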
